A study of Homo sapiens with 21 samples.

Results

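The genes that make nucleotides, carry one-carbon units on folate and make polyamines were followed in HCC1806, an established human line of triple-negative breast cancer that was kept as an adherent culture. A list of 34 enzyme genes that textbooks name as targets of the transcription factor MYC was taken, and each was found by its Ensembl identifier among the 60668 gene rows of both deposited count tables. All 34 passed the filter on low counts in both tables. The 21 RNA-seq libraries fell into 7 groups of 3. The 3xSR group, in which the labels give all of SRSF2, SRSF3 and SRSF7 as overexpressed, shares a table with MYC-OE, which overexpresses MYC, and with the control 3xCTL. The second table has 1 overexpressed SR gene per group (SRSF2-OE, SRSF3-OE, SRSF7-OE) and its own control, 1xCtrl, which carries a single control plasmid. SR proteins bind RNA and take part in splicing. MYC-OE was compared with 3xCTL, and whether these groups carry the same vectors was not given in the sources used here. The labels do not say whether a line is a clone or a pool, or whether replicates came from separate cultures, so the p-values measure the spread between these libraries, which may be technical.

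Cells build pyrimidines on an orotate ring and purines on phosphoribosyl pyrophosphate, and they also recover both from free bases and nucleosides. Folate enzymes supply the one-carbon units that the purine ring and thymidylate need, and ribonucleotide reductase turns ribonucleotides into the deoxynucleotides used for DNA. Polyamines are made from ornithine and decarboxylated S-adenosylmethionine, with ornithine decarboxylase at the entry. Dividing cells need all of these products, and MYC, bound to DNA as a dimer with MAX at the E-box CACGTG, is known to raise the transcription of many of the enzymes.

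Levels are given as CPM, counts scaled to 1e+06 per library with TMM factors, as mean ± SD (n = 3) or as the values of replicates 1, 2 and 3. A gene is said to have risen or fallen where its adjusted p in edgeR's quasi-likelihood test, with Benjamini-Hochberg adjustment over all genes tested, was under 0.05. Total counts ran from 143269192 to 303323552 per library, and the lowest count of any of the 34 genes in any library was 1760, so counting error was small beside the spread between replicates. The groups' labels were read against the RNA of the overexpressed genes. MYC rose in MYC-OE, from 93.4 ± 2.87 CPM in 3xCTL to 174 ± 5.95 CPM, a log2 fold change of 0.90 (SE 0.05, adjusted p = 5.7e-08). It also rose in the libraries labelled 3xSR, to 157 ± 1.72 CPM (log2 fold change 0.75, SE 0.05, adjusted p = 4.01e-07). SRSF3 rose by 0.49 in SRSF3-OE (SE 0.07, adjusted p = 0.000193) and SRSF7 rose by 0.26 in SRSF7-OE (SE 0.05, adjusted p = 0.00616). In 3xSR, SRSF3 rose by 0.31 and SRSF7 by 0.44 on the log2 scale. Both also rose in SRSF2-OE, SRSF3 by 0.30 (adjusted p = 0.00794) and SRSF7 by 0.24 (adjusted p = 0.00681), so the rise of SRSF7 is not particular to the SRSF7-OE libraries. SRSF2 fell in SRSF7-OE (-0.38, adjusted p = 0.0018) and in MYC-OE (-0.48, adjusted p = 2.32e-05). SRSF2 did not pass the test in the libraries labelled SRSF2-OE (log2 fold change -0.16, adjusted p = 0.098) or in those labelled 3xSR (-0.06, adjusted p = 0.389), so for these 2 groups the RNA does not show the labelled overexpression of SRSF2, and every direction below is that of the libraries so labelled. Against 1xCtrl, MYC was 0.12 higher in the libraries labelled SRSF2-OE (adjusted p = 0.165), 0.26 higher in SRSF3-OE (adjusted p = 0.00406) and 0.27 higher in SRSF7-OE (adjusted p = 0.00608). The MYC calls in SRSF3-OE and SRSF7-OE were lost in several fits without 1 library: in SRSF3-OE without 1xCtrl replicate 1 or 3 or any SRSF3-OE replicate (adjusted p from 0.0585 to 0.136), and in SRSF7-OE without 1xCtrl replicate 1 or 3 or SRSF7-OE replicate 1 or 3 (adjusted p from 0.0642 to 0.104).

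Keratins and other epithelial and basal markers summed to between 5505 and 7115 CPM in every library. Of the receptors that a triple-negative tumour lacks as proteins, PGR was at or below 1.46 CPM, ESR1 reached 11.5 CPM and ERBB2 184 CPM. Endothelial markers summed to at most 1.31 CPM. Fibroblast markers summed to between 15.3 and 49.7 CPM, with 47.4 to 49.7 CPM in 3xCTL, 19.1 to 19.2 CPM in MYC-OE and 23.0 to 25.8 CPM in 3xSR. LUM, the highest of them in 3xCTL at 35.7 to 39.7 CPM, was at 8.29 to 9.42 CPM in MYC-OE and 5.51 to 6.85 CPM in SRSF3-OE, where COL1A1 was at 8.28 to 9.65 CPM and 7.83 to 9.08 CPM. Leukocyte markers summed to between 7.60 and 38.5 CPM, most of it CD68, while PTPRC, which defines leukocytes, was at or below 0.539 CPM. The part of these differences in the results below was not tested.

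The libraries differed in base composition, between groups as well as within the controls. The tilt of a library, the median deviation of log2 level in the GC-richest genes less that in the GC-poorest, was 0.40 in 1xCtrl replicate 2, against -0.11 and -0.24 in the other 1xCtrl replicates. It was -0.20 in 3xCTL replicate 2, against 0.18 and 0.17 in the other 3xCTL replicates. All 3 libraries of 3xSR (-0.26 to -0.13) and of SRSF3-OE (-0.19 to -0.10) tilted to GC-poor genes and all 3 of MYC-OE (0.11 to 0.21) to GC-rich ones, while SRSF2-OE ran from -0.01 to 0.05 and SRSF7-OE from -0.03 to 0.20. The tilt thus moves with the group, and removing each library's trend takes out such differences between groups with it. The 34 genes run from 33.8% GC (PPAT) to 63.7% (SRM). For the GC-rich APRT, SRM, TK1, CAD and IMPDH1, values without 1 of these 2 control libraries are given below for some comparisons.

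RefSeq promoter windows, each from 250 bases before to 50 bases after a transcription start (GRCh38.p14), were found for 32 of the 34 genes. The E-box, the palindrome CACGTG, lay in a window of 9 of these 32 genes (28.1%), and of the 27305 genes with a window 8.77% had one. They are shown because they are the site that MYC is known to bind, with the E-box in capitals and up to 12 bases on either side. Positions are counted from +1 at the start site of the window.
ODC1, chr2:10448024-10448053, minus strand, first base at -29 of an alternative start: ccgggccccgggCACGTGtgcggcgcgcct
ODC1, chr2:10447990-10448019, minus strand, first base at +6 of the same start: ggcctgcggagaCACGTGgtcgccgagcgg
SRM, chr1:11060200-11060229, minus strand, first base at -199: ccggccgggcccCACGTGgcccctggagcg
PPAT, chr4:56435780-56435809, minus strand, first base at -182: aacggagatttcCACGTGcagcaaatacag
PAICS, chr4:56435780-56435801, plus strand, first base at +41: ctgtatttgctgCACGTGgaaa
ATIC, chr2:215312001-215312030, plus strand, first base at -46: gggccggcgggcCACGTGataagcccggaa
ATIC, chr2:215312076-215312105, plus strand, first base at +30: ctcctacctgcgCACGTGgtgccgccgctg
DHODH, chr16:72008573-72008602, plus strand, first base at -159: gccgctactgcgCACGTGcacccaaccaga
NME1, chr17:51153581-51153608, plus strand, first base at +35: agtgctgcgaacCACGTGggtcccgggc
MTHFD1, chr14:64388326-64388355, plus strand, first base at -15: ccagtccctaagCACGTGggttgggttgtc
MTHFD1L, chr6:150866320-150866349, plus strand, first base at -1 of one of its starts: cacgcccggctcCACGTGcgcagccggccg

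Both ODC1 E-boxes lay in an intron of ODC1 in GENCODE 29, in the window of its alternative start. Those of PPAT and SRM lay outside the gene, that of MTHFD1 in a coding exon, and those of DHODH, NME1, PAICS, ATIC and MTHFD1L in exons annotated as UTR. PPAT and PAICS, divergent neighbours that encode the first and a later step of purine synthesis, share a single E-box read on opposite strands. Words of the E2F type (TTTGGCGC, TTTGCCGC, TTTCCCGC or TTTCGCGC, either strand; no overlap with the E-box word) lay in windows of 4 of the 32 genes: TYMS, DUT, PRPS2 and GART. Of all genes with a window, 3.99% held one. Of the 9 genes with an E-box, 1 rose and 3 fell in 3xSR, where 7 of the 23 without one rose and 6 fell (29.0% of all genes called). In MYC-OE 3 of the 9 rose and 1 fell, where 8 of the 23 without one rose and 3 fell (35.3% of all genes tested were called there, either way). The counts in SRSF3-OE were 5 rising and 0 falling of 9, and 12 rising and 2 falling of 23 (29.2% of all genes called). They were 4 and 1 of 9 and 6 and 0 of 23 in SRSF2-OE (23.5%), and 3 and 0 of 9 and 5 and 1 of 23 in SRSF7-OE (17.3%). These counts are those as fitted. With each library's GC trend removed, PAICS (0.20, adjusted p = 0.00149), PPAT (0.20, adjusted p = 0.00269) and ATIC (0.17, adjusted p = 0.0132) also passed as higher in MYC-OE. SRM, which also has an E-box, then passed as lower (-0.36, adjusted p = 5.65e-05). Among genes without an E-box, IMPDH1 newly passed there as higher (0.12, adjusted p = 0.0358) and SHMT1 as lower (-0.10, adjusted p = 0.0467). A match is a run of letters and not a measured binding site.

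Against their own controls and with TMM factors, SRSF3-OE had the largest number of rising genes of the 5 comparisons, 17 of the 34, with 2 falling. It did not keep this rank when scaled by total counts alone or without SRSF3-OE replicate 1, as given below. Upper-quartile scaling also lowered its number of rising genes. In SRSF3-OE 29.2% of all genes tested were called, 15.0% as higher and 14.1% as lower. The median log2 fold change of the 34 was 0.23, beside -0.03 over all genes. Among the libraries labelled SRSF2-OE, 10 of the 34 rose and 1 fell (23.5% of all genes called, 11.6% higher and 11.9% lower), with a median of 0.09. In SRSF7-OE, 8 rose and 1 fell (17.3% of all genes called, 9.03% higher and 8.26% lower), with a median of 0.17. MYC-OE had 11 rising and 4 falling (35.3% of all genes called, 18.0% higher and 17.3% lower), with a median of 0.09. The libraries labelled 3xSR had 8 rising and 10 falling (29.0% of all genes called, 15.3% higher and 13.7% lower), with a median of -0.00. The 3xSR and MYC-OE comparisons share the 3xCTL libraries, and the 3 single overexpressions share the 1xCtrl libraries.

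All 34 genes lie above 10 CPM, and genes of at least that mean level, a background chosen after the data were seen, were called more often. In SRSF3-OE, 42.1% of such genes were called, 29.3% as higher and 12.9% as lower, so that more of them rose than fell, as in the 34, of which 55.9% were called. In MYC-OE the share was 45.8% (21.3% higher, 24.4% lower), beside 44.1% of the 34. In SRSF2-OE it was 35.3% (18.5% higher, 16.8% lower), beside 32.4%, and in SRSF7-OE 26.5% (14.4% higher, 12.2% lower), beside 26.5%. In 3xSR it was 37.7% (19.5% higher, 18.2% lower), beside 52.9%. In MYC-OE, SRSF2-OE and SRSF7-OE the called share of the 34 was thus near that of genes of this abundance, and the calls among the 34 were mostly rises.

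The counts moved with single libraries and with the scaling, and the share of all genes called in the same fit is given beside each. Without 1xCtrl replicate 1 the libraries labelled SRSF2-OE had 6 rising and 1 falling, a total of 7 (18.9% of all genes called). SRSF3-OE had 9 rising and 3 falling without its replicate 1 (22.0%). SRSF7-OE had a total of 4 called without 1xCtrl replicate 1 (12.9%), 5 without its own replicate 2 (12.7%), 3 without its own replicate 3 (10.7%) and 15 without 1xCtrl replicate 2 (29.2%). Scaling by the upper quartile gave 7 rising and 3 falling in SRSF3-OE (10.5% of all genes higher, 16.6% lower) and 3 and 1 in SRSF7-OE (7.05% and 9.33%). Scaling by total counts alone gave 7 and 4 in SRSF3-OE (9.42% of all genes higher, 29.4% called), 10 and 7 in MYC-OE (16.3% and 36.5%) and 8 and 3 in SRSF2-OE (9.20% and 25.0%). That last scaling moved the median of all genes in SRSF3-OE from -0.03 to -0.14.

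**Figure D1:**
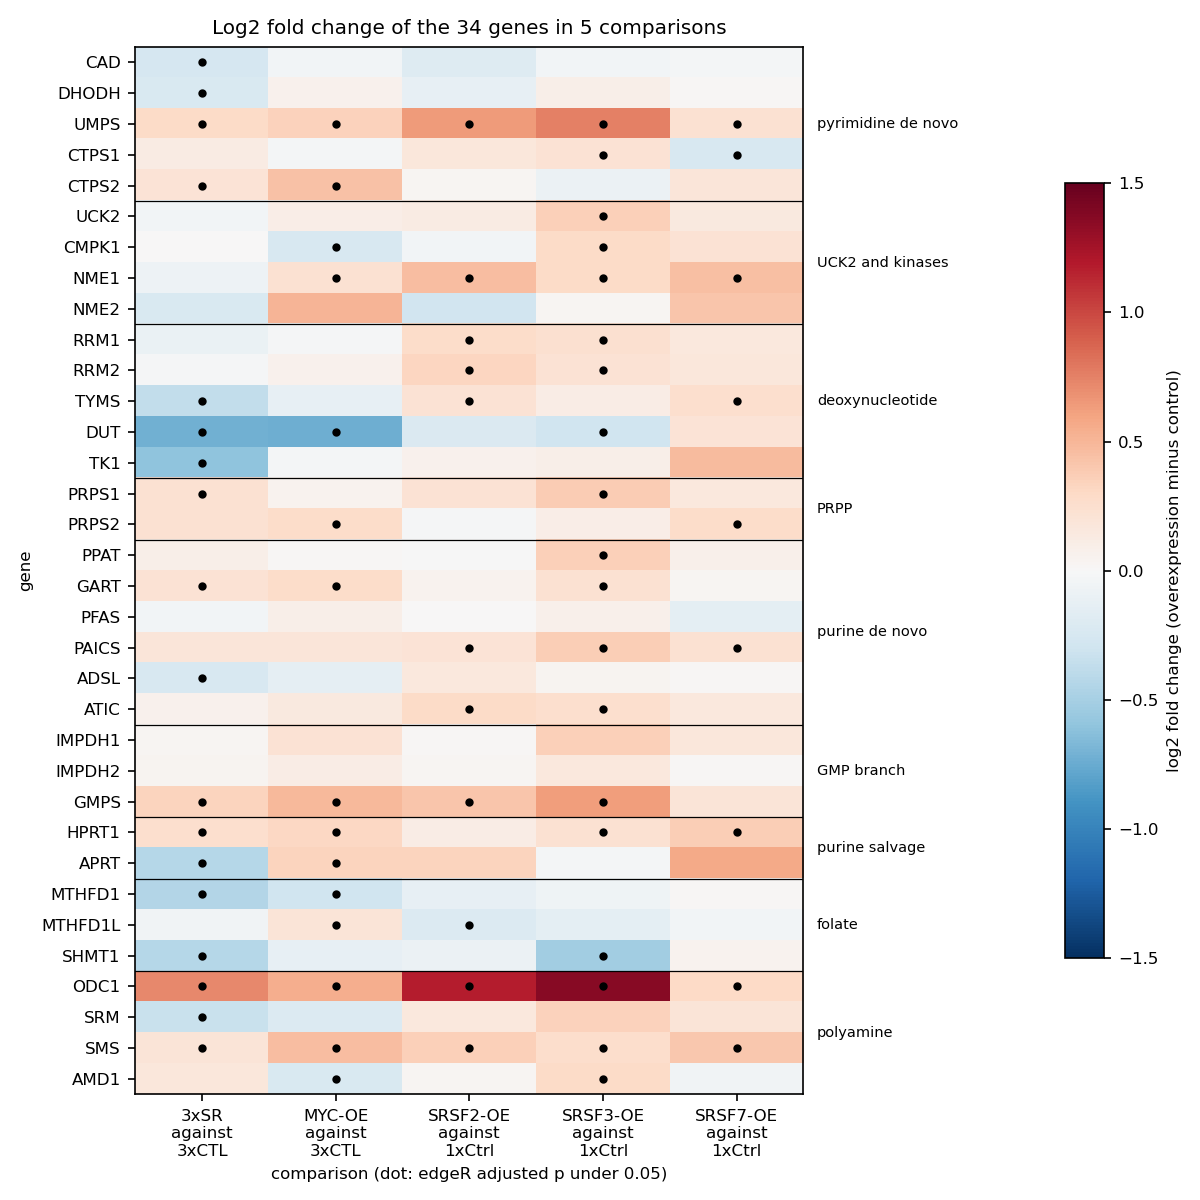
Log2 fold change of the 34 genes (rows, grouped by pathway) in the 5 comparisons with a control (columns); red is higher and blue lower in the overexpression group, and a dot marks an adjusted p under 0.05. ODC1, SMS and UMPS carry a dot in all 5 columns, and the folate and deoxynucleotide rows are mostly blue in 3xSR.

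Polyamine synthesis held the gene with the largest change of the list. ODC1 (ENSG00000115758.13, chr2:10439968-10448504, minus strand) encodes ornithine decarboxylase, the entry and rate-limiting enzyme. Its level was 101, 117 and 100 CPM in 3xCTL, 184, 166 and 176 CPM in 3xSR and 155, 151 and 157 CPM in MYC-OE. No 3xSR or MYC-OE library overlapped with the controls. The log2 fold change was 0.73 in 3xSR (SE 0.07, adjusted p = 7.71e-06) and 0.54 in MYC-OE (SE 0.07, adjusted p = 5.39e-05). In the second table it was 91.6, 80.9 and 98.7 CPM in 1xCtrl, 210, 207 and 194 CPM in SRSF2-OE, 239, 218 and 241 CPM in SRSF3-OE and 104, 119 and 110 CPM in SRSF7-OE. All 9 overexpression libraries were above all 3 controls, and the SRSF7-OE libraries stood only just above them. SRSF3-OE was 2.57-fold above 1xCtrl (log2 fold change 1.36, SE 0.08, adjusted p = 1.38e-07) and SRSF2-OE 2.25-fold (1.17, SE 0.08, adjusted p = 1.21e-06). SRSF7-OE was 1.23-fold above it (0.30, SE 0.08, adjusted p = 0.0203), a call lost without SRSF7-OE replicate 2 (adjusted p = 0.0592) or replicate 3 (adjusted p = 0.0541). Tested directly, ODC1 was higher in SRSF3-OE than in SRSF7-OE by 1.07 (SE 0.08, adjusted p = 5.73e-07) and higher in SRSF2-OE than in SRSF7-OE by 0.88 (SE 0.08, adjusted p = 9.58e-06). SRSF2-OE and SRSF3-OE did not differ past the threshold (-0.19, 95% interval -0.36 to -0.02, adjusted p = 0.0931).

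SMS (spermine synthase, ENSG00000102172.16, chrX:21940573-21994835) makes spermine from spermidine. It was 66.6, 76.2 and 64.6 CPM in 3xCTL, 82, 74.6 and 80.1 CPM in 3xSR and 94.4, 95.1 and 96.6 CPM in MYC-OE. MYC-OE was clear of the controls, while 3xSR replicate 2 lay below 3xCTL replicate 2. SMS rose by 0.46 in MYC-OE (SE 0.06, adjusted p = 0.000161) and by 0.19 in 3xSR (SE 0.06, adjusted p = 0.0447), a call lost without 3xCTL replicate 1 or 3 or 3xSR replicate 1 or 3 (adjusted p from 0.135 to 0.166). Against 68.7, 64.6 and 74.7 CPM in 1xCtrl, it was 91.2, 90.2 and 85.9 CPM in SRSF2-OE, 85.8, 79.3 and 84 CPM in SRSF3-OE and 88.7, 93.1 and 92.4 CPM in SRSF7-OE. None of these 9 libraries reached down to the controls. The rise was 0.36 (SE 0.06, adjusted p = 0.00108), 0.26 (SE 0.06, adjusted p = 0.00644) and 0.40 (SE 0.06, adjusted p = 0.00123), in the same order. No pair of these 3 groups differed past the threshold: the difference was 0.10 between SRSF2-OE and SRSF3-OE (95% interval -0.03 to 0.24), -0.04 between SRSF2-OE and SRSF7-OE (-0.17 to 0.10) and -0.14 between SRSF3-OE and SRSF7-OE (-0.27 to -0.00).

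AMD1 encodes S-adenosylmethionine decarboxylase, which makes the aminopropyl donor. AMD1 fell by 0.22 on the log2 scale in MYC-OE, from 93.9 ± 6.80 to 80.4 ± 3.65 CPM (SE 0.07, adjusted p = 0.0193), a call lost without MYC-OE replicate 2 (adjusted p = 0.0554) or replicate 3 (adjusted p = 0.0841). It rose in SRSF3-OE, from 101 ± 14 to 123 ± 4.56 CPM (log2 fold change 0.29, SE 0.09, adjusted p = 0.0214), and this call was lost without SRSF3-OE replicate 1 (adjusted p = 0.0699). Directly compared, AMD1 was lower in MYC-OE than in 3xSR by 0.39 (log2 fold change -0.39, SE 0.07, adjusted p = 0.000761). SRM, spermidine synthase, is the GC-richest of the 34 and is taken up with the other GC-rich genes.

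**Figure D2:**
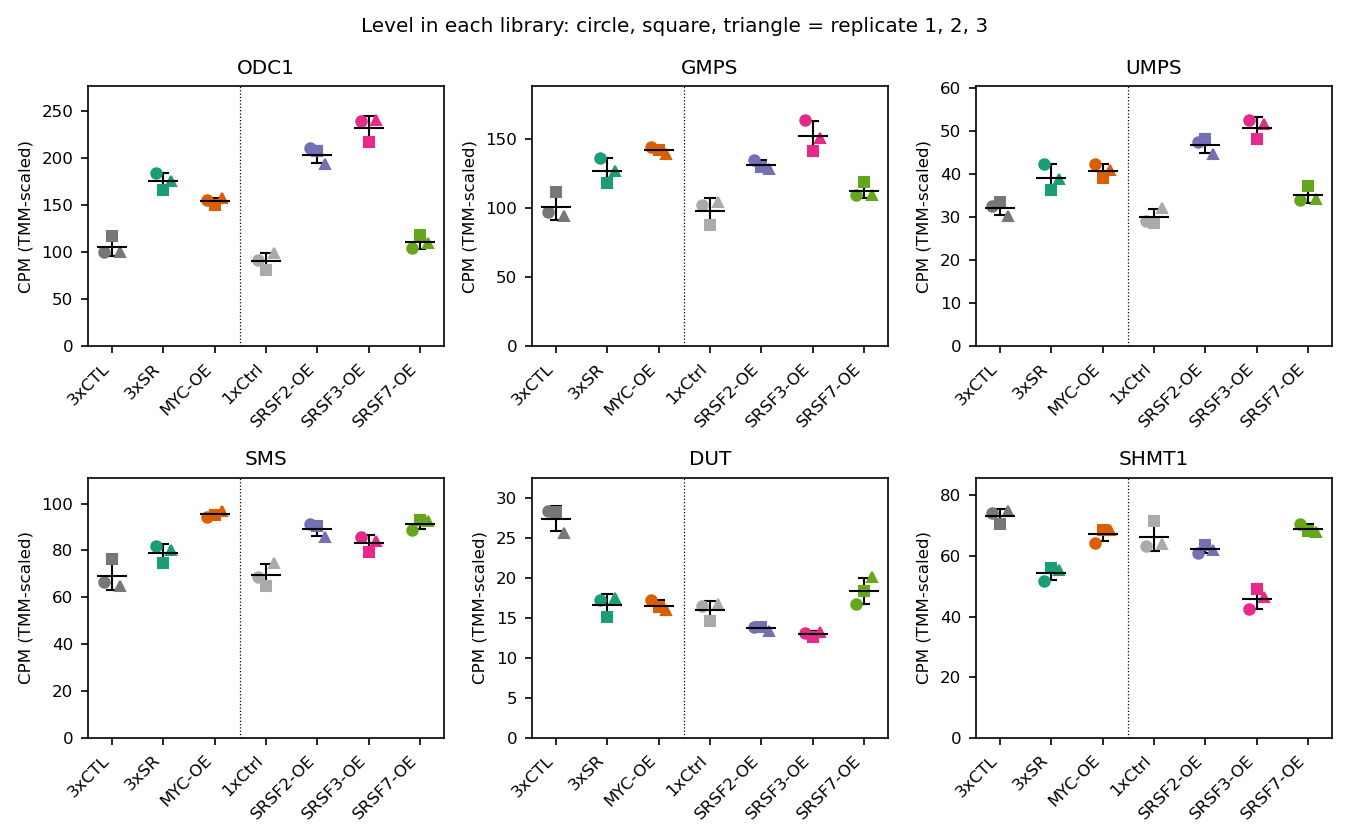
CPM of 6 genes in each of the 21 libraries (symbols), with the group mean and SD as bars and a dotted line between the 2 tables, which were scaled separately. ODC1 is at 194 CPM or more in each SRSF2-OE and SRSF3-OE library and at 98.7 CPM or less in every 1xCtrl library; DUT is at 25.7 CPM or more in every 3xCTL library and at 20.1 CPM or less in every other library.

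The first steps of pyrimidine synthesis did not move together. CAD, which carries out the opening 3 reactions, was 444, 375 and 442 CPM in 3xCTL, 339, 368 and 348 CPM in 3xSR and 402, 405 and 416 CPM in MYC-OE. It fell by 0.26 in 3xSR (SE 0.07, adjusted p = 0.0111), with no overlap. In MYC-OE the change was -0.05 (95% interval -0.19 to 0.10, adjusted p = 0.636), and in SRSF3-OE -0.04 (95% interval -0.26 to 0.17, adjusted p = 0.788). DHODH, the mitochondrial enzyme that makes orotate, had the lowest level per kilobase of exon of the 34 genes in each group, at 1.76 to 2.15 CPM per kb. It fell by 0.23 in 3xSR (SE 0.08, adjusted p = 0.0427) and did not pass the test in the other 4 comparisons. The 3xSR call was lost with the GC trend removed (-0.16, adjusted p = 0.0802) and without 3xCTL replicate 1 or 3 or 3xSR replicate 1 or 3 (adjusted p from 0.099 to 0.157).

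UMPS (ENSG00000114491.14, chr3:124730366-124749273, plus strand), which turns orotate into UMP, rose in all 5. It was 32.6, 33.5 and 30.3 CPM in 3xCTL, 42.3, 36.2 and 38.8 CPM in 3xSR and 42.3, 39.1 and 40.8 CPM in MYC-OE. In the second table it was 29.1, 28.7 and 32 CPM in 1xCtrl, 47.3, 48.0 and 44.7 CPM in SRSF2-OE, 52.5, 48.0 and 51.6 CPM in SRSF3-OE and 34, 37.3 and 34.2 CPM in SRSF7-OE. Every overexpression library stood above every control of its table. The log2 fold change was 0.29 in 3xSR (SE 0.07, adjusted p = 0.00665), 0.34 in MYC-OE (SE 0.07, adjusted p = 0.00158), 0.64 in SRSF2-OE (SE 0.07, adjusted p = 2.62e-05) and 0.76 in SRSF3-OE (SE 0.07, adjusted p = 3.68e-06). In SRSF7-OE it was 0.23 (SE 0.07, adjusted p = 0.0277), which was lost without 1xCtrl replicate 1 (adjusted p = 0.106), SRSF7-OE replicate 2 (0.103) or SRSF7-OE replicate 3 (0.0654). As with ODC1, SRSF3-OE exceeded SRSF7-OE (0.53, SE 0.07, adjusted p = 4.37e-05), and so did SRSF2-OE (0.41, SE 0.07, adjusted p = 0.000654).

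CTP synthase, which aminates UTP, has 2 genes that moved differently. CTPS2 rose in MYC-OE, from 13.8, 14.8 and 13.2 CPM to 18.2, 18.7 and 19.6 CPM (log2 fold change 0.43, SE 0.06, adjusted p = 0.000271). It also rose in 3xSR (0.20, SE 0.07, adjusted p = 0.0339), a call lost without 3xCTL replicate 1 or 3 or any 3xSR replicate (adjusted p from 0.0522 to 0.132) and with the GC trend removed (0.14, adjusted p = 0.0551). CTPS1, the more abundant gene, fell in SRSF7-OE, from 150, 137 and 155 CPM to 127, 128 and 120 CPM (log2 fold change -0.24, SE 0.06, adjusted p = 0.0148). It rose in SRSF3-OE, to 174, 167 and 174 CPM (0.22, SE 0.06, adjusted p = 0.0134; lost without SRSF3-OE replicate 3, adjusted p = 0.0546), and the 2 groups differed by 0.46 (SE 0.06, adjusted p = 5.97e-05). Among the other pyrimidine genes, UCK2, the uridine and cytidine salvage kinase, rose from 42.9 ± 1.09 to 55.0 ± 1.61 CPM in SRSF3-OE (0.36, SE 0.05, adjusted p = 0.000217). It was also higher in SRSF3-OE than in SRSF2-OE or SRSF7-OE (adjusted p = 0.00492 and 0.0066), the second of these lost without SRSF3-OE replicate 1 or 3 or any SRSF7-OE replicate (adjusted p from 0.0514 to 0.0762). CMPK1, the UMP and CMP kinase, fell by 0.24 in MYC-OE (SE 0.06, adjusted p = 0.0096) and rose by 0.28 in SRSF3-OE (SE 0.09, adjusted p = 0.0307). The SRSF3-OE call was lost without 1xCtrl replicate 1 or 2 or SRSF3-OE replicate 1 or 3 (adjusted p from 0.0864 to 0.157), and was 0.18 without 1xCtrl replicate 2.

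NME1 and NME2 encode nucleoside diphosphate kinases and sit side by side on chromosome 17, and the annotation also lists a readthrough gene, NME1-NME2, over both. That readthrough row took 43.9% to 73.6% of the locus's counts, NME1 19.0% to 23.8% and NME2 5.74% to 32.3%. NME2 varied most among replicates of a group: it was 54.3, 19.8 and 55.6 CPM in 3xCTL, 41.2, 79.1 and 29.2 CPM in 1xCtrl and 52.3, 37.4 and 110 CPM in SRSF7-OE. The readthrough row took its smallest share, 43.9%, in the library where NME2 took its largest, and its largest, 73.6%, where NME2 took its smallest, and the 3 rows were summed. The sum was 328 ± 14.6 CPM in 3xCTL, 328 ± 6.19 CPM in 3xSR and 380 ± 5.72 CPM in MYC-OE, and 256 ± 8.74 CPM in 1xCtrl, 333 ± 10.8 CPM in SRSF2-OE, 306 ± 13.2 CPM in SRSF3-OE and 339 ± 7.08 CPM in SRSF7-OE. The sum rose in MYC-OE by 0.21 (adjusted p = 0.00432). Against 1xCtrl it rose by 0.38 where the label is SRSF2-OE (adjusted p = 0.000349), by 0.26 for SRSF3-OE (adjusted p = 0.00321) and by 0.40 for SRSF7-OE (adjusted p = 0.000546). In 3xSR it was -0.00 (adjusted p = 0.988). The NME1 row on its own rose in the same 4 groups, by 0.23, 0.47, 0.28 and 0.46. In SRSF3-OE this call was lost with the GC trend removed (0.30, adjusted p = 0.0649), without 1xCtrl replicate 1 or 3 and without any SRSF3-OE replicate (adjusted p from 0.0604 to 0.386). It was lost in SRSF2-OE without 1xCtrl replicate 1 (adjusted p = 0.0561), and in SRSF7-OE without 1xCtrl replicate 1 (0.0652) or SRSF7-OE replicate 3 (0.057). The NME2 row alone passed the test in none of the 5 comparisons.

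**Figure D3:**
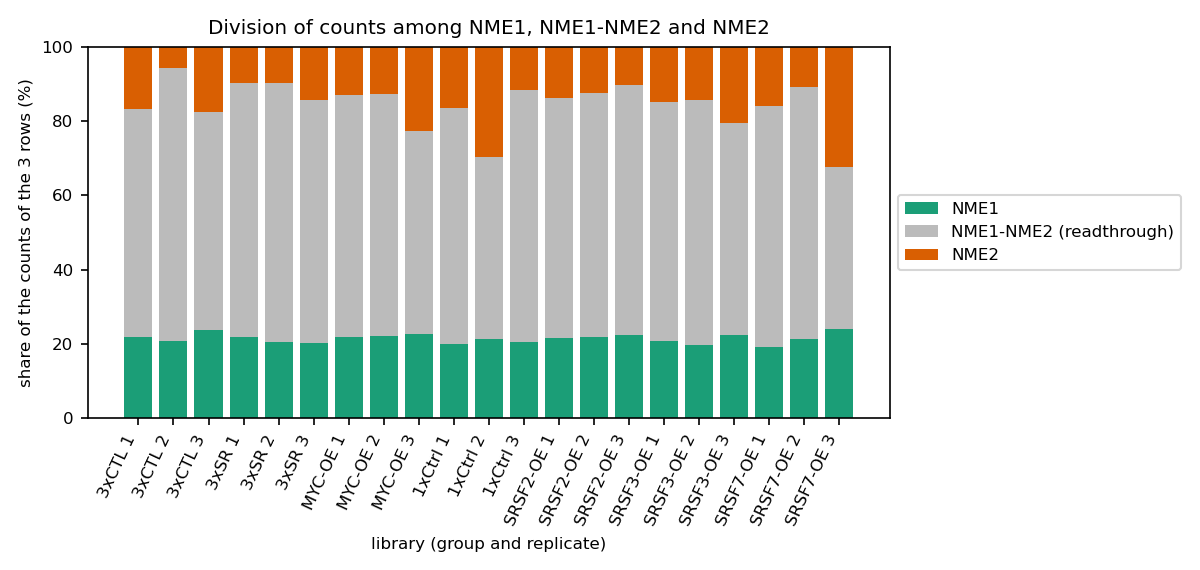
Share of the counts of the NME1, NME1-NME2 and NME2 rows in each of the 21 libraries, in percent. NME1 keeps 19.0% to 23.8% in every library, while NME2 runs from 5.74% in 3xCTL replicate 2 to 32.3% in SRSF7-OE replicate 3.

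Of the 5 deoxynucleotide genes, DUT, TYMS and TK1 fell in 3xSR and DUT fell in MYC-OE. In the second table, as fitted, DUT fell in SRSF3-OE, while TYMS, RRM1 and RRM2 rose in at least 1 group each. TK1 passed there only in other fits, given with the GC-rich genes below. DUT (ENSG00000128951.14, chr15:48331011-48343373, plus strand) encodes dUTPase, which keeps uracil out of DNA. It was 28.3, 28.3 and 25.7 CPM in 3xCTL, 17.3, 15.1 and 17.5 CPM in 3xSR and 17.3, 16.4 and 16 CPM in MYC-OE. The fall was 0.72 on the log2 scale in 3xSR (log2 fold change -0.72, SE 0.07, adjusted p = 1.84e-05) and 0.73 in MYC-OE (-0.73, SE 0.07, adjusted p = 1.1e-05). The difference between these groups was -0.01 (95% interval -0.17 to 0.15). In the second table DUT was 16.5, 14.7 and 16.8 CPM in 1xCtrl, already at the level of 3xSR and MYC-OE, though the 2 tables were scaled separately and no test was made across them. From there it fell to 13.1, 12.6 and 13.3 CPM in SRSF3-OE (-0.30, SE 0.08, adjusted p = 0.0113), was 13.9, 13.9 and 13.4 CPM in SRSF2-OE (-0.22, adjusted p = 0.0632) and 16.8, 18.4 and 20.1 CPM in SRSF7-OE (0.21, adjusted p = 0.0923). With the GC trend removed DUT passed the test in SRSF2-OE (-0.22, adjusted p = 0.0208) and SRSF7-OE (0.22, adjusted p = 0.0255). DUT was lower in SRSF3-OE than in SRSF7-OE by 0.51 (log2 fold change -0.51, SE 0.08, adjusted p = 0.000257).

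TYMS, thymidylate synthase, was 79.1, 87.5 and 75.9 CPM in 3xCTL, 67.9, 60.8 and 59.8 CPM in 3xSR and 76.6, 70.9 and 75.3 CPM in MYC-OE. It fell in 3xSR without overlap (-0.36, SE 0.07, adjusted p = 0.00169), and MYC-OE overlapped with the controls (-0.12, 95% interval -0.27 to 0.02). Against 56.3, 55.3 and 64.1 CPM in 1xCtrl it rose in SRSF2-OE, to 70.1, 67.1 and 67.1 CPM (0.22, SE 0.07, adjusted p = 0.0334), a call lost without 1xCtrl replicate 1 (0.13, adjusted p = 0.212) or 2 (0.17, adjusted p = 0.0737) or any SRSF2-OE replicate (adjusted p from 0.102 to 0.177). It rose too in SRSF7-OE, to 70.3, 68.4 and 71 CPM (0.26, SE 0.07, adjusted p = 0.0203), a call lost without 1xCtrl replicate 1 (adjusted p = 0.0963), SRSF7-OE replicate 1 (0.0657) or SRSF7-OE replicate 3 (0.0856). Part of its exons are shared with ENOSF1 and TYMSOS on the other strand. RRM1 and RRM2, the large and the small subunit of ribonucleotide reductase, did not pass the test in 3xSR (-0.10, 95% interval -0.27 to 0.07, and -0.01, -0.15 to 0.12) and in MYC-OE (-0.02, -0.19 to 0.15, and 0.07, -0.07 to 0.20). With the GC trend removed RRM1 passed, as lower, in 3xSR (-0.17, adjusted p = 0.0144). RRM2 rose in SRSF2-OE, from 225 ± 21.3 to 281 ± 8.70 CPM (0.32, SE 0.07, adjusted p = 0.00546), and in SRSF3-OE (0.22, adjusted p = 0.0347). RRM1 rose in the same pair of groups (0.27, SE 0.08, adjusted p = 0.0259, and 0.24, SE 0.08, adjusted p = 0.0389). In SRSF3-OE both calls were lost without 1xCtrl replicate 1 or 2 or SRSF3-OE replicate 1 or 3 (adjusted p from 0.102 to 0.157 for RRM2 and 0.0853 to 0.19 for RRM1). Without 1xCtrl replicate 2 they were 0.14 and 0.15. The RRM1 call in SRSF2-OE was lost without 1xCtrl replicate 1 (adjusted p = 0.0551), SRSF2-OE replicate 1 (0.0963) or SRSF2-OE replicate 2 (0.0755).

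TK1, thymidine kinase, was 163, 109 and 147 CPM in 3xCTL and 94.8, 94.7 and 87.7 CPM in 3xSR, with no overlap, and fell by 0.60 (log2 fold change -0.60, SE 0.12, adjusted p = 0.00473). It was 139, 135 and 139 CPM in MYC-OE, inside the range of the controls (-0.02, 95% interval -0.29 to 0.24). Beside these, a list of 23 other S-phase genes had 2 rising and 11 falling in 3xSR, with a median of -0.16. It had 3 and 5 in MYC-OE, 8 and 1 in SRSF2-OE, 7 and 3 in SRSF3-OE and 8 and 0 in SRSF7-OE. Of 20 G2/M genes, 4 rose and 4 fell in 3xSR, with 9 and 1 in MYC-OE, 6 and 0 in SRSF2-OE, 5 and 1 in SRSF3-OE and 3 and 1 in SRSF7-OE. Of all genes tested, 15.3% were called higher and 13.7% lower in 3xSR, and 18.0% and 17.3% in MYC-OE. These shares were 11.6% and 11.9% in SRSF2-OE, 15.0% and 14.1% in SRSF3-OE and 9.03% and 8.26% in SRSF7-OE. The part of the S-phase and G2/M genes in the deoxynucleotide results was not tested. In these bulk libraries a smaller share of cells in S phase and less RNA per cell cannot be told apart.

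**Figure D4:**
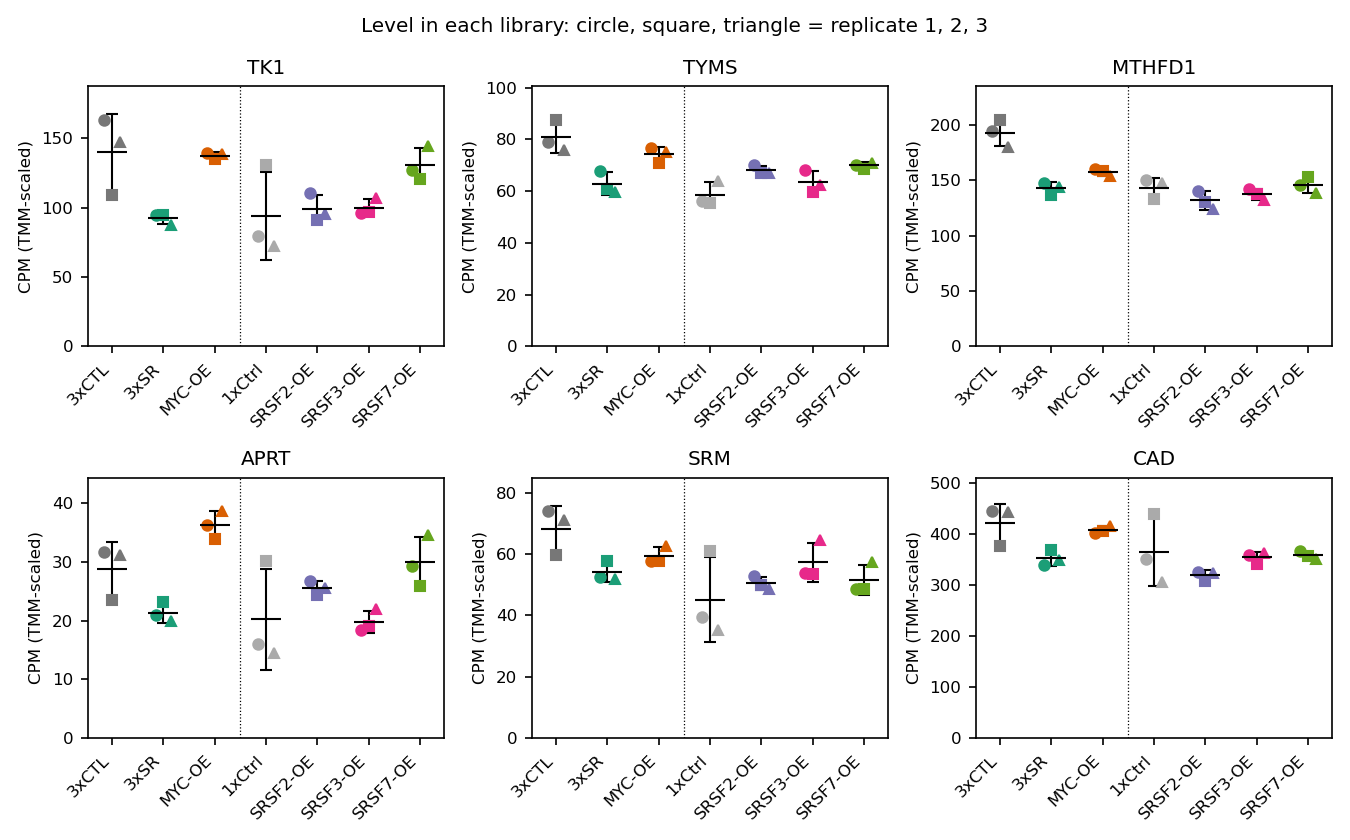
CPM of 6 further genes in each of the 21 libraries (symbols), with the group mean and SD as bars and a dotted line between the 2 tables, which were scaled separately. In TK1, APRT, SRM and CAD the square of 1xCtrl (replicate 2) lies above the other 1xCtrl libraries and the square of 3xCTL below the other 3xCTL libraries.

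Purine synthesis starts from phosphoribosyl pyrophosphate, made by PRPS1 and PRPS2. PRPS1 rose in 3xSR, from 29.8, 31.5 and 28.2 CPM to 36, 34 and 34.6 CPM (0.22, SE 0.05, adjusted p = 0.00935), and in SRSF3-OE, from 26.2, 22.7 and 27.9 CPM to 33.3, 33.2 and 33 CPM (0.38, SE 0.09, adjusted p = 0.00559). Neither pair of groups overlapped. PRPS2 rose in MYC-OE (0.27, SE 0.08, adjusted p = 0.021, with overlap) and in SRSF7-OE (0.28, SE 0.08, adjusted p = 0.0339, no overlap). The MYC-OE call was lost without 3xCTL replicate 3 or MYC-OE replicate 1 or 2 (adjusted p from 0.0758 to 0.0999). The SRSF7-OE call was lost without 1xCtrl replicate 1 or 3 or any SRSF7-OE replicate (adjusted p from 0.0521 to 0.102).

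Of the 6 enzymes that build the ring, 4 rose in SRSF3-OE, PPAT, GART, PAICS and ATIC, where 15.0% of all genes and 29.3% of those at 10 CPM or more were called higher. PPAT, the amidotransferase that commits the pathway, was 59.6, 48.6 and 56.6 CPM in 1xCtrl and 73.5, 68.3 and 69.4 CPM in SRSF3-OE (0.36, SE 0.07, adjusted p = 0.00289). All 3 SRSF3-OE libraries stood above the controls. PPAT was higher there than in SRSF2-OE (log2 fold change of SRSF2-OE over SRSF3-OE -0.36, SE 0.07, adjusted p = 0.003) and than in SRSF7-OE (0.28, SE 0.07, adjusted p = 0.00957). Its neighbour PAICS, the carboxylase and SAICAR synthetase, rose in SRSF3-OE, from 230 ± 20.4 to 298 ± 12 CPM (0.37, SE 0.07, adjusted p = 0.00135), in SRSF2-OE (0.21, adjusted p = 0.0495) and in SRSF7-OE (0.23, SE 0.07, adjusted p = 0.0386). The SRSF2-OE call was lost without 1xCtrl replicate 1 or 2 or SRSF2-OE replicate 1 or 2 (adjusted p from 0.0871 to 0.177), with 0.13 and adjusted p = 0.111 without 1xCtrl replicate 2. The SRSF7-OE call was lost without 1xCtrl replicate 1 or any SRSF7-OE replicate (adjusted p from 0.0587 to 0.0764).

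GART, which carries out 3 steps of the ring, rose in MYC-OE from 159, 172 and 149 CPM to 195, 195 and 189 CPM (0.27, SE 0.06, adjusted p = 0.00526). In 3xSR it rose to 199, 175 and 184 CPM (0.22, SE 0.06, adjusted p = 0.0218), a call lost without 3xCTL replicate 1 or 3 or 3xSR replicate 1 or 3 (adjusted p from 0.0592 to 0.096). ATIC, which closes the ring, rose in SRSF2-OE (0.28, SE 0.07, adjusted p = 0.00839) and in SRSF3-OE (0.25, SE 0.07, adjusted p = 0.0141; lost without SRSF3-OE replicate 1, adjusted p = 0.0635). GART in SRSF3-OE (0.23) was lost without 1xCtrl replicate 1 or SRSF3-OE replicate 1 or 3 (adjusted p from 0.050 to 0.0877). ADSL, adenylosuccinate lyase, was the ring enzyme that fell, from 70.0, 74.4 and 70.3 CPM in 3xCTL to 61.5, 58.7 and 62.2 CPM in 3xSR (-0.24, SE 0.05, adjusted p = 0.0042). PFAS passed the test in none of the 5 comparisons as fitted. With the GC trend removed it passed in 3xSR (0.13, adjusted p = 0.0201), SRSF3-OE (0.23, adjusted p = 0.00117) and, as lower, SRSF7-OE (-0.15, adjusted p = 0.0225). Without 1xCtrl replicate 2 it passed in SRSF2-OE (0.19, adjusted p = 0.0455) and SRSF3-OE (0.26, adjusted p = 0.00851).

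GMPS (ENSG00000163655.16, chr3:155870536-155944026, plus strand), which aminates XMP to GMP, was 97.3, 111 and 94.2 CPM in 3xCTL, 136, 118 and 127 CPM in 3xSR and 144, 142 and 139 CPM in MYC-OE. In the second table it was 102, 88.2 and 104 CPM in 1xCtrl, 135, 130 and 129 CPM in SRSF2-OE, 164, 142 and 151 CPM in SRSF3-OE and 110, 119 and 109 CPM in SRSF7-OE. Every overexpression library was above the controls of its table. GMPS rose by 0.33 in 3xSR (SE 0.07, adjusted p = 0.00385), 0.49 in MYC-OE (SE 0.07, adjusted p = 0.000187), 0.42 in SRSF2-OE (SE 0.07, adjusted p = 0.00146) and 0.63 in SRSF3-OE (SE 0.08, adjusted p = 4.8e-05). SRSF7-OE did not pass the test (0.19, 95% interval 0.03 to 0.36, adjusted p = 0.095), and SRSF3-OE was higher than SRSF7-OE by 0.43 (SE 0.07, adjusted p = 0.000559). With the GC trend removed GMPS passed in SRSF7-OE (0.22, adjusted p = 0.00393). IMPDH1 and IMPDH2, the dehydrogenases one step earlier, passed in none of the 5 comparisons as fitted. IMPDH2 in MYC-OE was 0.11 higher (95% interval 0.01 to 0.21, adjusted p = 0.0787). With the GC trend removed IMPDH2 passed in MYC-OE (0.12, adjusted p = 0.0213) and SRSF3-OE (0.22, adjusted p = 0.00468). IMPDH1 then passed in 3xSR (0.28, adjusted p = 0.000162) and MYC-OE (0.12, adjusted p = 0.0358), and its SRSF3-OE value is given below.

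HPRT1, which salvages hypoxanthine and guanine, was 27.5, 28.7 and 24.4 CPM in 3xCTL and 35.3, 33.4 and 31.6 CPM in MYC-OE (0.32, SE 0.07, adjusted p = 0.00537). It rose in SRSF7-OE from 28.6 ± 2.31 to 36.9 ± 1.41 CPM (0.37, SE 0.07, adjusted p = 0.00408) and in SRSF3-OE (0.23, SE 0.07, adjusted p = 0.0258), the latter lost without 1xCtrl replicate 2 (0.16, adjusted p = 0.0773) or 3 or SRSF3-OE replicate 1 or 3 (adjusted p from 0.0644 to 0.12). In 3xSR it rose to 34.5, 30.3 and 31.4 CPM (0.25, SE 0.07, adjusted p = 0.0223), lost without 3xCTL replicate 1 or 3 or 3xSR replicate 1 or 3 (adjusted p from 0.0505 to 0.1). Here SRSF7-OE stood above SRSF2-OE (log2 fold change of SRSF2-OE over SRSF7-OE -0.25, SE 0.07, adjusted p = 0.0216), the reverse of the order seen for ODC1, UMPS and GMPS.

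Of the 3 folate genes, MTHFD1 fell in 3xSR and MYC-OE, SHMT1 fell in 3xSR and SRSF3-OE, and MTHFD1L moved in both directions. MTHFD1 (ENSG00000100714.17, chr14:64388031-64463457, plus strand), the trifunctional cytosolic enzyme, was 194, 204 and 180 CPM in 3xCTL, 148, 136 and 143 CPM in 3xSR and 160, 158 and 154 CPM in MYC-OE. All 6 overexpression libraries were below the controls. It fell by 0.44 in 3xSR (log2 fold change -0.44, SE 0.06, adjusted p = 0.000123) and by 0.29 in MYC-OE (-0.29, SE 0.06, adjusted p = 0.00142). In 1xCtrl it was 150, 133 and 147 CPM, beside 142 ± 5.66 CPM in 3xSR of the separately scaled other table, and it passed the test in none of the 3 single overexpressions (log2 fold changes -0.12, -0.06 and 0.02). With the GC trend removed it passed, as lower, in SRSF2-OE (-0.15, adjusted p = 0.0284).

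SHMT1 (ENSG00000176974.20, chr17:18327860-18363563, minus strand), which takes a one-carbon unit from serine in the cytosol, fell in 3xSR from 74.3, 70.7 and 74.7 CPM to 51.8, 55.9 and 55.4 CPM (-0.43, SE 0.05, adjusted p = 8.56e-05). It fell in SRSF3-OE from 63.2, 71.4 and 64 CPM to 42.5, 49.0 and 46.4 CPM (-0.53, SE 0.07, adjusted p = 6.89e-05). Neither pair overlapped. In MYC-OE it was 67.3 ± 2.46 CPM (-0.12, 95% interval -0.24 to -0.01, adjusted p = 0.0905), and SHMT1 was higher in MYC-OE than in 3xSR (0.31, SE 0.05, adjusted p = 0.00084). With the GC trend removed SHMT1 passed, as lower, in MYC-OE (-0.10, adjusted p = 0.0467). It was higher in SRSF2-OE than in SRSF3-OE (0.44, SE 0.07, adjusted p = 0.00036), and lower in SRSF3-OE than in SRSF7-OE (-0.58, SE 0.07, adjusted p = 1.96e-05). MTHFD1L, the mitochondrial formate-releasing enzyme, rose in MYC-OE from 46.9 ± 4.22 to 53.5 ± 0.114 CPM (0.19, SE 0.06, adjusted p = 0.029; lost without 3xCTL replicate 1 or 3 or any MYC-OE replicate, adjusted p from 0.062 to 0.0869) and fell in SRSF2-OE from 42.9 ± 1.71 to 37.2 ± 1.60 CPM (-0.20, SE 0.06, adjusted p = 0.0182).

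Values of the GC-rich members depended on the libraries that stood apart by base composition. APRT, which salvages adenine, was 31.6, 23.6 and 31.2 CPM in 3xCTL, 20.9, 23.2 and 19.9 CPM in 3xSR and 36.3, 33.8 and 38.6 CPM in MYC-OE. It fell in 3xSR (-0.43, SE 0.11, adjusted p = 0.0118) and rose in MYC-OE (0.33, SE 0.11, adjusted p = 0.033). The first call was lost without 3xCTL replicate 1 or 3 or 3xSR replicate 1 or 3 (adjusted p from 0.0518 to 0.0569), and the second without MYC-OE replicate 1 (adjusted p = 0.0837) or replicate 3 (adjusted p = 0.113). With each library's GC trend removed, the values were -0.18 (adjusted p = 0.0124) and 0.19 (adjusted p = 0.00547). Without 3xCTL replicate 2 they were -0.56 (adjusted p = 2.9e-05) and 0.21 (adjusted p = 0.0298). In 1xCtrl APRT was 16, 30.1 and 14.6 CPM, and the high replicate 2 is the library with the strongest GC trend. SRSF7-OE, at 29.2, 25.9 and 34.6 CPM, overlapped with it (0.56, SE 0.24, adjusted p = 0.148). Without 1xCtrl replicate 2 this difference was 0.98 (adjusted p = 0.000171), and with the GC trend removed 0.45 (adjusted p = 6.01e-05). Without that library APRT also passed the test in SRSF2-OE (0.73, adjusted p = 0.000712) and SRSF3-OE (0.36, adjusted p = 0.0381).

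SRM was 73.9, 59.6 and 71.2 CPM in 3xCTL and 52.6, 57.7 and 51.7 CPM in 3xSR, and fell by 0.34 (log2 fold change -0.34, SE 0.08, adjusted p = 0.00726). With the GC trend removed the value was -0.09 (adjusted p = 0.222), so this call did not hold, and without 3xCTL replicate 2 it was -0.43 (adjusted p = 6.03e-05). In MYC-OE, where SRM had not passed the test (-0.20, adjusted p = 0.0695), removal of the trend gave -0.36 (adjusted p = 5.65e-05) and leaving out 3xCTL replicate 2 -0.29 (adjusted p = 0.00132). Without 1xCtrl replicate 2 SRM passed as higher in SRSF2-OE (0.43, adjusted p = 0.00896), SRSF3-OE (0.61, adjusted p = 0.000941) and SRSF7-OE (0.48, adjusted p = 0.00543). With the trend removed SRM was 0.23 in SRSF2-OE (adjusted p = 0.0403) and 0.53 in SRSF3-OE (adjusted p = 0.000142). In SRSF7-OE it was then 0.05 (adjusted p = 0.72), so a rise there was not seen in that fit. TK1 in 3xSR went from -0.60 to -0.33 with the trend removed (adjusted p = 8.46e-05) and to -0.75 without 3xCTL replicate 2 (adjusted p = 2.58e-07). CAD went from -0.26 to -0.10 (adjusted p = 0.035) and -0.33 (adjusted p = 7.06e-05) in the same fits. So for these genes the removal made the fall in 3xSR smaller and leaving out the library made it larger. In SRSF7-OE, TK1 was 127, 121 and 145 CPM against 80.0, 131 and 72.4 CPM in 1xCtrl. It did not pass the test (0.47, SE 0.19, adjusted p = 0.127), was 0.80 without 1xCtrl replicate 2 and 0.37 with the trend removed (adjusted p = 0.000474). In the latter fit TK1 also passed as higher in SRSF2-OE (0.17, adjusted p = 0.045) and SRSF3-OE (0.31, adjusted p = 0.000858). CAD then passed as lower in SRSF2-OE (-0.17, adjusted p = 0.0215) but not in SRSF3-OE or SRSF7-OE. IMPDH1 in SRSF3-OE went from 0.36 (adjusted p = 0.129) to 0.62 without 1xCtrl replicate 2 and 0.58 with the trend removed (adjusted p = 1.33e-06). ODC1 moved little under the same removal: 0.74, 0.54, 1.12, 1.35 and 0.30 in the 5 comparisons. DUT was -0.79 in 3xSR and -0.73 in MYC-OE. After the removal the whole list had 9 rising and 10 falling in 3xSR (17.2% of all genes higher and 33.2% called in that fit), 16 and 7 in MYC-OE (22.1% and 43.3%), 16 and 4 in SRSF2-OE (16.7% and 33.8%), 22 and 2 in SRSF3-OE (20.2% and 38.2%) and 20 and 2 in SRSF7-OE (15.1% and 28.8%).

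**Figure D5:**
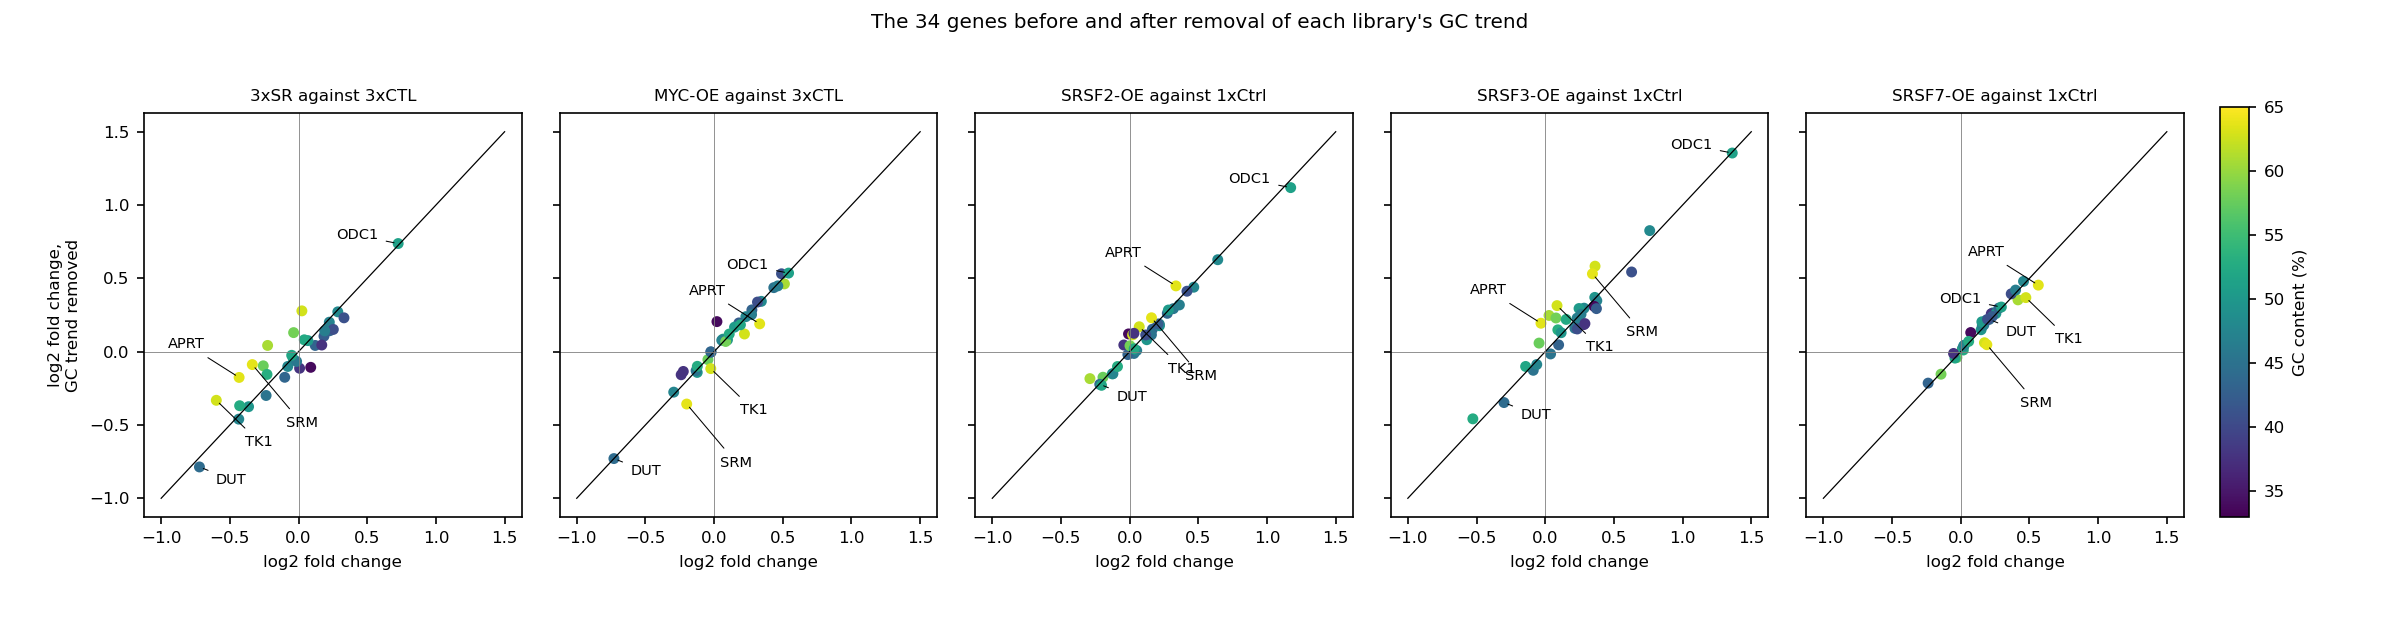
Log2 fold change of the 34 genes as fitted (x axis) and with each library's GC trend removed (y axis) in the 5 comparisons with a control, coloured by the GC content of the gene; the line marks equal values. GC-rich genes such as APRT, TK1 and SRM leave the line, while ODC1 and DUT stay on or near it.

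MYC-OE and 3xSR, with MYC RNA at 174 ± 5.95 and 157 ± 1.72 CPM, were compared directly. Between them 15 of the 34 genes differed, 11 higher and 4 lower in MYC-OE, where 34.9% of all genes were called (17.3% higher, 17.6% lower) and 50.2% of those at 10 CPM or more (22.7% higher, 27.5% lower). This fell to 8 without MYC-OE replicate 3 (26.2% of all genes called). The higher genes were APRT, TK1, SHMT1, NME1, DHODH, SMS, MTHFD1L, TYMS, CTPS2, CAD and UCK2. The lower ones were AMD1, CMPK1, ODC1 and PRPS1. Thymidylate genes TK1 (0.57, SE 0.12, adjusted p = 0.005) and TYMS (0.24, SE 0.07, adjusted p = 0.0159) were among the higher ones, and ODC1 (-0.18, SE 0.07, adjusted p = 0.0472) among the lower. These 2 groups tilt opposite ways in GC. With the trend removed TK1 was 0.22 (adjusted p = 0.00246) and TYMS 0.23 (adjusted p = 0.0048), while CAD (0.04, adjusted p = 0.349) and CMPK1 (-0.04, adjusted p = 0.405) no longer passed. In that fit ADSL, GMPS, HPRT1, MTHFD1, PPAT, RRM1 and RRM2 newly passed as higher in MYC-OE, and IMPDH1 and SRM as lower. Leaving out single libraries ended the calls of ODC1 (adjusted p up to 0.162), TYMS (up to 0.0773), CAD (up to 0.0885), PRPS1 (up to 0.119), UCK2 (up to 0.0975), CTPS2 (0.0686) and DHODH (0.0517). As fitted, UMPS did not pass the test between them (0.06, 95% interval -0.09 to 0.20), nor did GMPS (0.16, 95% interval 0.01 to 0.31, adjusted p = 0.0972). With the trend removed GMPS was 0.30 (adjusted p = 3.98e-05).

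Among the single overexpressions, 8 of the 34 genes were higher and 3 lower in SRSF3-OE than in SRSF7-OE. Of all genes, 35.2% were called here (17.8% higher, 17.3% lower), and of those at 10 CPM or more 48.1% (31.1% higher, 17.0% lower). The higher ones were ODC1, UMPS, CTPS1, GMPS, AMD1, PPAT, UCK2 and GART, and the lower ones SHMT1, DUT and CTPS2. Between SRSF2-OE and SRSF7-OE there were 4 in each direction (24.2% of all genes called, 11.5% higher and 12.8% lower; 34.3% of those at 10 CPM or more, 16.5% higher and 17.8% lower): ODC1, UMPS, CTPS1 and GMPS higher and DUT, PRPS2, CMPK1 and HPRT1 lower in SRSF2-OE. Between SRSF2-OE and SRSF3-OE 1 was higher, SHMT1, and 4 were lower, PPAT, CMPK1, AMD1 and UCK2 (26.8% of all genes called, 12.6% higher and 14.1% lower; 37.1% of those at 10 CPM or more, 11.3% higher and 25.8% lower). That total of 5 became 9 without SRSF2-OE replicate 1 or without SRSF3-OE replicate 2 (23.0% and 25.3% of all genes called), and 3 without SRSF2-OE replicate 2 or without SRSF3-OE replicate 1 (21.5% and 20.5%). With scaling by total counts alone, SRSF3-OE against SRSF7-OE had 5 higher and 10 lower (12.6% and 23.1% of all genes), and SRSF2-OE against SRSF7-OE 3 higher and 7 lower (9.45% and 16.4%). Upper-quartile scaling gave 4 higher and 1 lower for the latter (12.5% and 10.6%), 1 and 2 for SRSF2-OE against SRSF3-OE (15.2% and 9.70%), and 11 and 2 for MYC-OE against 3xSR (18.2% and 16.2%).

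Comparisons from the 2 tables have separate controls, so their calls can be set side by side. Of the 8 genes that rose in 3xSR, 7 also rose in SRSF3-OE (87.5% of the 3xSR list and 41.2% of the 17 in SRSF3-OE): GART, GMPS, HPRT1, ODC1, PRPS1, SMS and UMPS. Over all genes these shares were 41.7% and 40.3%. Among these 7, GART, HPRT1 and SMS lost the 3xSR call in fits without 1 library, and GART and HPRT1 also lost that in SRSF3-OE. Both genes that fell in SRSF3-OE, DUT and SHMT1, also fell in 3xSR, 2 of the 10 falling there (over all genes, 41.8% of those falling in 3xSR and 38.7% of those falling in SRSF3-OE fell in both). MYC-OE and SRSF3-OE shared 7 rising genes (63.6% and 41.2%, beside 29.4% and 33.4% of all genes) and called AMD1 and CMPK1 in opposite directions, though each of these SRSF3-OE calls was lost in fits without 1 library. Rising in both MYC-OE and SRSF7-OE were HPRT1, NME1, ODC1, PRPS2, SMS and UMPS (54.5% and 75.0%, beside 31.3% and 59.4% of all genes). Of these, NME1, ODC1, PRPS2 and UMPS lost the SRSF7-OE call in fits without 1 library. TYMS fell in 3xSR and rose in SRSF2-OE and SRSF7-OE, and MTHFD1L rose in MYC-OE and fell in SRSF2-OE. The rises of TYMS and MTHFD1L were lost in such fits too.

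The pathways' other genes, a list of 75 enzymes, transporters and regulators of purine, pyrimidine, folate and polyamine metabolism, had 18 rising and 15 falling in 3xSR, 24 and 14 in MYC-OE, 12 and 8 in SRSF2-OE, 17 and 7 in SRSF3-OE and 16 and 6 in SRSF7-OE. Of all genes tested, 29.0%, 35.3%, 23.5%, 29.2% and 17.3% were called in that order. Among genes at 10 CPM or more the shares were 37.7%, 45.8%, 35.3%, 42.1% and 26.5%. Without 1xCtrl replicate 2 the totals in SRSF2-OE and SRSF7-OE were both 37, and 29.2% of all genes were called in that SRSF7-OE fit. The share in that SRSF2-OE fit is not given here. Some moved more than any of the 34. NT5E, the ecto-nucleotidase CD73 that makes adenosine outside the cell, rose from 26 ± 1.4 to 75.9 ± 1.85 CPM in 3xSR (log2 fold change 1.55, SE 0.05, adjusted p = 4.38e-09). NT5E rose by 1.10 in MYC-OE (adjusted p = 3.01e-08) and by 1.06 in SRSF3-OE (adjusted p = 4.66e-07). SLC46A1, the proton-coupled folate transporter, rose from 16 ± 0.547 to 52.7 ± 1.28 CPM in MYC-OE (1.72, SE 0.06, adjusted p = 1.84e-09) and to 35.0 ± 2.13 CPM in 3xSR (1.13, SE 0.06, adjusted p = 7.48e-08).

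Genes around the polyamine enzymes moved as well. OAZ2 encodes an antizyme, a class of proteins that binds ornithine decarboxylase and sends it for degradation. OAZ2 fell from 74.0 ± 2.73 to 39.3 ± 1.66 CPM in 3xSR (-0.91, SE 0.05, adjusted p = 1.7e-07), by 0.60 in MYC-OE (log2 fold change -0.60, adjusted p = 3.18e-06) and from 44.6 ± 2.68 to 25.1 ± 0.445 CPM in SRSF3-OE (-0.83, SE 0.06, adjusted p = 7.11e-07). DHPS, which puts the spermidine-derived hypusine on the translation factor eIF5A, fell in MYC-OE (-0.78, adjusted p = 1.76e-05), SRSF2-OE (-0.39, adjusted p = 0.0172) and SRSF7-OE (-0.50, adjusted p = 0.00618). SAT1, the acetyltransferase of polyamine breakdown, fell in SRSF2-OE (-0.40, adjusted p = 0.00313), and ATP13A3, a polyamine transporter, rose in SRSF3-OE from 598 ± 66.6 to 967 ± 69.8 CPM (0.69, adjusted p = 5.9e-05).

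Other named neighbours belonged to folate, purine and nucleoside metabolism or to the cell cycle. ALDH1L2, a mitochondrial formyltetrahydrofolate dehydrogenase, fell in SRSF2-OE (-0.79, adjusted p = 9.88e-06) and SRSF3-OE (-0.95, adjusted p = 1.21e-06). MTHFS rose in SRSF2-OE (0.63, adjusted p = 0.000212) and SRSF7-OE (0.52, adjusted p = 0.00156). ADA, adenosine deaminase, rose in MYC-OE (1.21, adjusted p = 1.35e-06) and XDH, xanthine dehydrogenase, in SRSF2-OE (0.66, adjusted p = 6.08e-06). UPP1, uridine phosphorylase, rose in 3xSR (1.00, adjusted p = 3.51e-07) and fell in SRSF7-OE (-0.32, adjusted p = 0.0134). SAMHD1, which breaks down deoxynucleoside triphosphates, rose in SRSF7-OE (0.49, adjusted p = 0.000415), as did the replication helicase subunit MCM2 (0.51, adjusted p = 0.0173), while MKI67 fell there (-0.35, adjusted p = 0.0227). MCM5 fell in 3xSR (-0.53, adjusted p = 0.00043). CCNE1, cyclin E1, rose in SRSF2-OE and SRSF3-OE by 0.71 each (adjusted p = 4.39e-06 and 1.68e-06), and E2F1 fell in SRSF3-OE (-0.41, adjusted p = 0.00929).

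Levels per kilobase of exon allow the genes to be ranked within a group. TK1 was the highest of the 34 in 3xCTL (75.2 CPM per kb), MYC-OE (73.9), 1xCtrl (50.7) and SRSF7-OE (70.4). ODC1 took that place in 3xSR (59.0 CPM per kb), SRSF2-OE (68.7) and SRSF3-OE (78.3), from 35.7 in 3xCTL and 30.5 in 1xCtrl. In 1xCtrl the next gene, IMPDH2, was at 48.4 CPM per kb, and TK1 there ran from 72.4 to 131 CPM over the replicates, so the first places in that group do not differ beyond the spread. The median of the 34 lay between 14.8 and 18.2 CPM per kb in each of the 7 groups.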

How the data were processed

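The deposited values are whole-number counts per gene, in 2 tables with versioned Ensembl identifiers (60668 rows); per the submitters' processing notes the authors used Trimmomatic 0.39, STAR and StringTie 2.1.3b on GRCh38.p13, without the role of each. StringTie estimates counts, so these may be rounded estimates. Per the labels' protocols, polyA-selected stranded libraries were sequenced as read pairs. The annotation release, the strand setting and whether a pair counts once are not given in the sources used here. Of the 34 genes, 6 share exon bases with another gene on their strand and 9 with one on the other strand in GENCODE 29, and how reads of near copies such as NME1 and NME2 were divided is not given.

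Groups and replicate numbers come from the titles. The tests ran in R 4.3.3. They used edgeR 4.0.16 on the counts: filterByExpr (minimum count 10, minimum total 15), TMM, robust glmQLFit over all groups of a table without a block, and glmQLFTest with Benjamini-Hochberg adjustment over all genes tested (23160 and 24362). The standard error is the absolute log2 fold change over the square root of F. Intervals are at 95%. Alternatives used other scalings and filters, DESeq2 1.42.0, limma-voom (limma 3.58.1), the 2 groups alone, a replicate block, thinning, removal of each library's trend over 50 bins of GC content, and each replicate left out. On simulated counts for MYC-OE against 3xCTL (23160 genes, 200 changed 2-fold), 57.5% of the changed genes were called, 96.8% of the 95 at 5 CPM or more, and 8.0% of all calls were false. The simulation held no GC tilt and few changed genes, while 35.3% of genes were called in the real comparison. Its rates may therefore not hold for the real libraries.

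The 34 genes and all gene lists were chosen with earlier results of these data known. Full statistics are given, in each comparison with a control, for up to 8 of the 34 genes with the highest and 8 with the lowest log2 fold change among those with an adjusted p under 0.05 and no overlap, with the targeted genes, and for 3 neighbours in each direction with a mean of at least 5 CPM. Other values were picked after they were seen. One neighbour that the rule names is not reported here. Replicates differed by more than counting error (chi-square over its degrees of freedom, 17.1 to 302 in 21 pairs).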

Additional observations from a re-analysis of the deposited data

How the results depend on the processing

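Of 63 gene and comparison results given in full, 42 kept their direction and call under every alternative tried; of their 1000 alternative values 74 lost the call, 3 gained one and 1 turned. That 1 was NME2 in SRSF2-OE, from -0.29 alone to 0.38 for the locus sum. ODC1 kept its call in 3xSR, MYC-OE, SRSF2-OE and SRSF3-OE. The calls counted as lost in fits without 1 library hold none of MYC, whose losses in SRSF3-OE and SRSF7-OE are given above. They also leave out other calls with losses given above, such as SMS and DHODH in 3xSR and RRM1 and RRM2 in SRSF3-OE.

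The number of the 34 genes called, after removal of the GC trend, was 23 in MYC-OE, 20 in SRSF2-OE, 22 in SRSF7-OE, 13 for SRSF2-OE against SRSF3-OE, 15 for SRSF2-OE against SRSF7-OE and 20 for SRSF3-OE against SRSF7-OE (43.3%, 33.8%, 28.8%, 34.6%, 34.3% and 42.2% of all genes). With the replicate block and the GC trend removed it was 24, 17, 19, 13, 15 and 20, and 23 for MYC-OE against 3xSR. The share of all genes in that fit was 43.4% in MYC-OE, 31.8% in SRSF2-OE and 37.9% for MYC-OE against 3xSR. Upper-quartile scaling gave 10 in SRSF3-OE, 4 in SRSF7-OE, 3 for SRSF2-OE against SRSF3-OE and 5 for SRSF2-OE against SRSF7-OE. Total counts alone gave 11 in SRSF3-OE. Fits of the 2 groups alone gave 9 in SRSF3-OE, 3 in SRSF7-OE, and 12, 13 and 17 for SRSF2-OE against SRSF3-OE, SRSF2-OE against SRSF7-OE and SRSF3-OE against SRSF7-OE. The share of all genes called moves with the fit too. In SRSF2-OE it was 23.5% as fitted and 18.9% with the 2 groups alone, so these counts by themselves say little about the 34. For the other fits of the 2 groups alone, and for some with the block, no share is given here. Those counts are not results about the 34. Of the 75 neighbours, removal of the GC trend called 32 in SRSF2-OE and 38 in SRSF7-OE (33.8% and 28.8% of all genes). The 2 groups alone called 14 in SRSF7-OE, a fit whose share is not given here. The cause was not tested.

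The median log2 fold change of the 34 with total counts alone was 0.056 in MYC-OE, 0.033 in SRSF2-OE, 0.12 in SRSF3-OE, 0.10 for MYC-OE against 3xSR, and -0.061, -0.090 and -0.041 for SRSF2-OE against SRSF3-OE, SRSF2-OE against SRSF7-OE and SRSF3-OE against SRSF7-OE. Upper-quartile scaling gave 0.13 in SRSF7-OE, 0.13 for MYC-OE against 3xSR and -0.052 for SRSF2-OE against SRSF3-OE. Thinned counts gave 0.15 in SRSF7-OE. For MYC-OE against 3xSR, no filter gave 0.13, and removal of the GC trend 0.14, with or without the block.

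MYC in SRSF3-OE was 0.15 with total counts alone, 0.21 with no filter and 0.22 with the 2 groups alone, and in SRSF7-OE 0.27 with the 2 groups alone, none of them past the threshold. SRSF2 passed it, as lower, in 3xSR with the GC trend removed (-0.12, also with the block), and in SRSF2-OE with total counts alone (-0.22), no filter (-0.19), the GC trend removed (-0.19, also with the block) and thinned counts (-0.19).

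Leaving out each replicate in turn moved the number called among the 34 from 12 to 23 in 3xSR, 12 to 21 in MYC-OE, 7 to 16 in SRSF2-OE, 12 to 23 in SRSF3-OE, 3 to 15 in SRSF7-OE, 8 to 13 for MYC-OE against 3xSR, 3 to 9 for SRSF2-OE against SRSF3-OE, 6 to 9 for SRSF2-OE against SRSF7-OE and 8 to 12 for SRSF3-OE against SRSF7-OE. The medians ran from -0.02 to 0.03, 0.09 to 0.11, 0.013 to 0.13, 0.15 to 0.21, 0.14 to 0.18, 0.11 to 0.13, -0.15 to -0.08, -0.084 to -0.030 and 0.00 to 0.09 in that order. The calls among the 75 neighbours ran from 23 to 42, 29 to 40, 17 to 37, 19 to 29 and 16 to 37. MYC ran from 0.73 to 0.76, 0.87 to 0.92, 0.030 to 0.17, 0.17 to 0.30 and 0.20 to 0.34. SRSF2 ran from -0.10 to -0.03 in 3xSR and -0.22 to -0.15 in SRSF2-OE, SRSF3 from 0.26 to 0.37 in 3xSR and 0.40 to 0.52 in SRSF3-OE, and SRSF7 from 0.40 to 0.47 in 3xSR and 0.22 to 0.26 in SRSF7-OE. The share of all genes called moved in these fits as well. It ran from 20.5% to 38.5% in 3xSR, 27.6% to 37.7% in MYC-OE and 25.4% to 29.0% for MYC-OE against 3xSR. For comparisons within the second table the share is given above for some single fits only. The ranges of calls among the 34 and the 75 there cannot be told apart from a change over all genes.

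Over all genes, same-numbered libraries did not deviate together (correlations from -0.19 to 0.05). Since single control libraries stood apart in GC, this cannot show whether same-numbered libraries were handled together. With the replicate number as a block 7 rose and 9 fell in 3xSR (16 called; 26.5% of all genes), 10 and 4 in MYC-OE (14; 33.5%), 9 and 1 in SRSF2-OE (10; 20.3%), 15 and 2 in SRSF3-OE (17; 26.0%) and 6 and 1 in SRSF7-OE (7; 13.8%).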
